A study of Mus musculus with 12 samples.

Results

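Glul, Oat, Slc1a2, Rhbg, Axin2, Rnf43, Lgr5, Tbx3 and Lect2 are 9 genes of hepatocytes around the central vein, chosen by name as pericentral and Wnt pathway genes, with no threshold on their values. They are 9 of the 36047 mouse genes to which the deposited transcripts could be matched, and each of them had enough reads to be tested. Liver RNA was sequenced from 12 male C57Bl/6J mice, 3 in each of 4 diet groups, aged between 5 and 6 months and killed after 7 days on the diets. RF.Ctrl mice ate a regular-fat control diet and RF.SAAR mice the regular-fat diet with sulfur amino acid restriction (SAAR), both with 18% of energy as fat. HF.Ctrl and HF.SAAR mice ate the corresponding diets with 60% of energy as fat. Every diet, control diets included, lacked cysteine, and the SAAR diets held less methionine, with glutamic acid added to balance the nitrogen. The regular-fat and high-fat diets came from different suppliers, so fat content and other differences between these diets cannot be told apart. The question for these genes is whether the pericentral program differed with SAAR, with dietary fat, or with their combination.

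The liver lobule runs from the portal triad, where blood enters, to the central vein, where it leaves, and hepatocytes along this path express different genes. Endothelial cells of the central vein secrete the Wnt ligands Wnt2 and Wnt9b and the potentiator R-spondin 3, which stabilize β-catenin in the neighbouring hepatocytes and switch on target genes through TCF factors. The hepatocytes nearest to the vein hold glutamine synthetase and take up the ammonium that the periportal urea cycle has left, while other targets of the pathway, such as Axin2 and Rnf43, encode its own inhibitors. Bulk liver RNA carries no position in the lobule, and fewer pericentral cells and less RNA per cell cannot be told apart in such samples.

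Promoter sequences are shown for 3 members because TCF factors bind a short motif in DNA. Sequence outside the windows around start sites was not searched. RefSeq windows of 300 bases, from 250 before to 50 after an annotated start of a gene in GRCm38.p6, were matched for 6 of the 9 members, and Rnf43 had more than 1. The core TCF motif was searched on both strands as AACAAAG, as ATCAAAG, as TACAAAG and as TTCAAAG. It occurred once each in the windows of Slc1a2 and Lect2, and 16.9% of all 32851 promoter windows held at least 1 match. Capitals mark the match, which begins at position -207 from the start in Slc1a2 and at position -32 in Lect2. For Slc1a2 the position is counted from an internal start at 102706438 of chromosome 2. No window was matched for its upstream start at 102658659. The Axin2 window is shown beside them as that of the best known direct target, and these letters do not occur in it. A match is only a description of the letters. The windows lie at chr2:102706188-102706487 on the + strand for Slc1a2, chr13:56548489-56548788 on the - strand for Lect2 and chr11:108920099-108920398 on the + strand for Axin2, each written 5′ to 3′ along its gene.
Slc1a2: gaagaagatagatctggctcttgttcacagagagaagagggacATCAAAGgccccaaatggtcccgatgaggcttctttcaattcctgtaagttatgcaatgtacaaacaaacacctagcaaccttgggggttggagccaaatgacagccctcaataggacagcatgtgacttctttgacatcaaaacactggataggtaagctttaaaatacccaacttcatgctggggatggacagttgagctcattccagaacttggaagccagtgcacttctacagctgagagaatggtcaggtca
Lect2: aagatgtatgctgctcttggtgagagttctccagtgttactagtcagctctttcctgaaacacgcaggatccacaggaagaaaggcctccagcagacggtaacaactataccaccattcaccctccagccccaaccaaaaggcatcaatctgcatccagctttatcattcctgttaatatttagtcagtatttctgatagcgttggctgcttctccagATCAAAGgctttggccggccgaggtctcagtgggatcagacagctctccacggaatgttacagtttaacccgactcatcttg
Axin2: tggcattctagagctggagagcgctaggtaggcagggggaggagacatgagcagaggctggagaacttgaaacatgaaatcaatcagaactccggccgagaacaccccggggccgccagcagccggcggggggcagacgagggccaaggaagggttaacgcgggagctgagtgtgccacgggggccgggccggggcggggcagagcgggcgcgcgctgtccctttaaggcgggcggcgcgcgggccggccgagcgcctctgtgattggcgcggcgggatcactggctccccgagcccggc

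The members covered a wide range of abundance. The TPM value, a share of all transcripts that corrects for transcript length and so allows genes to be compared within a library, averaged 537 for Oat, 311 for Glul, 184 for Lect2 and 45.8 for Slc1a2 over the 12 mice. The remaining members lay far lower, at 6.34 TPM for Rnf43, 4.62 for Rhbg, 3.92 for Tbx3, 1.88 for Axin2 and 1.30 for Lgr5. The upper 4 kept this order in 12 of 12 mice, and each of them was above every lower member in each mouse. Among the lower members the order was not fixed, since Rnf43 exceeded Rhbg in 9 of 12 mice, Rhbg exceeded Tbx3 in 7 and Axin2 exceeded Lgr5 in 7. The rounded estimated count behind a value ranged from 9699 to 27305 reads for Oat but only from 44 to 148 for Axin2 and from 52 to 141 for Lgr5. The spread between mice of the same diet differed as widely. The SD of log2 values within groups was 0.11 for Glul, 0.13 for Slc1a2, 0.20 for Lect2 and 0.23 for Oat. It was 0.27 for Axin2, 0.34 for Rhbg, 0.46 for both Rnf43 and Lgr5 and 0.52 for Tbx3.

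The most abundant members were read almost wholly from 1 transcript. On average 99.5% of the count of Glul, 99.97% of that of Oat and 99.5% of that of Lect2 lay on 1 coding transcript, and Rhbg has a single annotated transcript. The count of Slc1a2 was divided over 3 coding transcripts. The long one, which starts upstream at position 102658659 of chromosome 2, held 51.4% of it, and the pair starting at 102706438, below the promoter shown above, held 31.9% and 16.2%. These shares differed little between diets, with group means of the long transcript between 49.9% in RF.SAAR and 53.0% in HF.SAAR. For Axin2 the full coding transcript held 77.9% of the count on average but between 56.7% and 98.4% in single mice. For Rnf43 the leading transcript held from 0% to 79.6% and for Tbx3 from 17.1% to 76.1%. Gene sums are used in the rest of the text. Rhbg overlaps the annotated gene Gm38392 on the same strand, at most 1.43 CPM (the count of a gene scaled to a common library size with TMM factors) in any mouse, and Oat lies in the span of Fgfr2, at 23.5 to 38.2 CPM. Glul, Slc1a2, Axin2, Lgr5, Tbx3 and Rnf43 each overlap an annotated gene on the opposite strand. The partner of Glul, Teddm2, reached at most 2.67 CPM and that of Lgr5, A930009A15Rik, at most 0.23 CPM. No level was available for the partners of Slc1a2, Axin2, Tbx3 and Rnf43. Since the use of strand in counting is not given in the sources used here, reads of such partners cannot be told apart.

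Library totals ranged from 16203094 to 21230092 estimated counts. The labelled tissue was checked against its markers, and 7 hepatocyte markers, albumin among them, summed to between 83165 and 108987 CPM in every mouse. Pancreatic acinar transcripts were also present and uneven: the summed CPM of 34 digestive enzyme and related genes was 1951, 86.9 and 94.01 in the RF.Ctrl mice, 44.8, 105 and 81.6 in RF.SAAR, 2131, 7824 and 85.2 in HF.Ctrl, and 76.5, 4544 and 20502.5 in HF.SAAR. Of these genes 32 of 34 were tested, while Prss1 and Prss3 did not pass the filter on low counts. The 4 mice with the highest sums were all on high fat, and the part of this signal in the fat comparisons of the members was not tested beyond the following fit. With its log2 sum as a covariate the median log2 fold change of the 9 members was 0.37 between the Ctrl groups and 0.41 between the SAAR groups, against 0.31 and 0.25 without it, and 0 of 9 members were called in either fit.

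None of the 9 members was called in any of the 7 comparisons at the adjusted p threshold of 0.05 by edgeR's quasi-likelihood test, with adjustment over all 14670 genes tested. In RF.SAAR vs. RF.Ctrl 0 of 9 members were called, against 1.49% of all genes, and 2 of 9 had an unadjusted p under 0.05, against 13.6%. In HF.SAAR vs. HF.Ctrl 0 of 9 were called, against 1.97%, and 2 of 9 passed unadjusted, against 12.4%. With both fat levels pooled, 6 SAAR mice against 6 Ctrl mice, 0 of 9 were called, against 6.92%, and 3 of 9 passed unadjusted, against 20.3%. These shares of members are close to the background of all genes. DESeq2 called 1 member (Lect2) in the first comparison, 0 in the second and 2 (Glul and Oat) in the pooled one. It called more genes than edgeR in these comparisons, 591 of 12179, 595 of 12629 and 1363 of 14868.

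The comparisons of dietary fat had almost no calls anywhere. In HF.Ctrl vs. RF.Ctrl 0 of 9 members and 0% of all genes were called, while 2 of 9 members had an unadjusted p under 0.05, against 3.59% of all genes. In HF.SAAR vs. RF.SAAR 0 of 9 were called, against 0.0477%, and 5 of 9 passed unadjusted, against 5.59%. With both diets pooled 0 of 9 were called, against 0.0409%, and 6 of 9 passed unadjusted, against 5.84%. In the interaction, the SAAR effect on high fat minus that on regular fat, 0 of 9 were called, against 0.00682%, and 3 of 9 passed unadjusted, against 3.15%. DESeq2 called 1 member in each of the 3 fat comparisons, Axin2, Lect2 and Slc1a2 in that order, and 0 in the interaction. Of 14868 genes it called 31, 85 and 124 in the fat comparisons, and it called 16 of 15315 in the interaction. The pairwise comparisons share groups, since RF.Ctrl mice are the reference for both RF.SAAR and HF.Ctrl and RF.SAAR mice enter both a diet and a fat comparison.

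Signs leaned to higher values with fat. The log2 fold change was positive for 9 of 9 members in HF.Ctrl vs. RF.Ctrl, where it was positive for 50.3% of all genes, and the members' median was 0.31, against 0.0016 for all genes. It was positive for 8 of 9 in HF.SAAR vs. RF.SAAR (median 0.25) and for 9 of 9 with the diets pooled (median 0.36). Scaled by library size alone, 8, 8 and 9 of 9 were positive, Rhbg being the member with the opposite sign in the first. With SAAR, 7 of 9 were positive on regular fat (median 0.27) and 6 of 9 on high fat (median 0.094), with all genes at -0.0013 and -0.0014. Scaling by library size alone put the median of all genes at 0.16 and 0.17 in these SAAR comparisons, and the members' medians to 0.43 and 0.24.

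**Figure D1:**
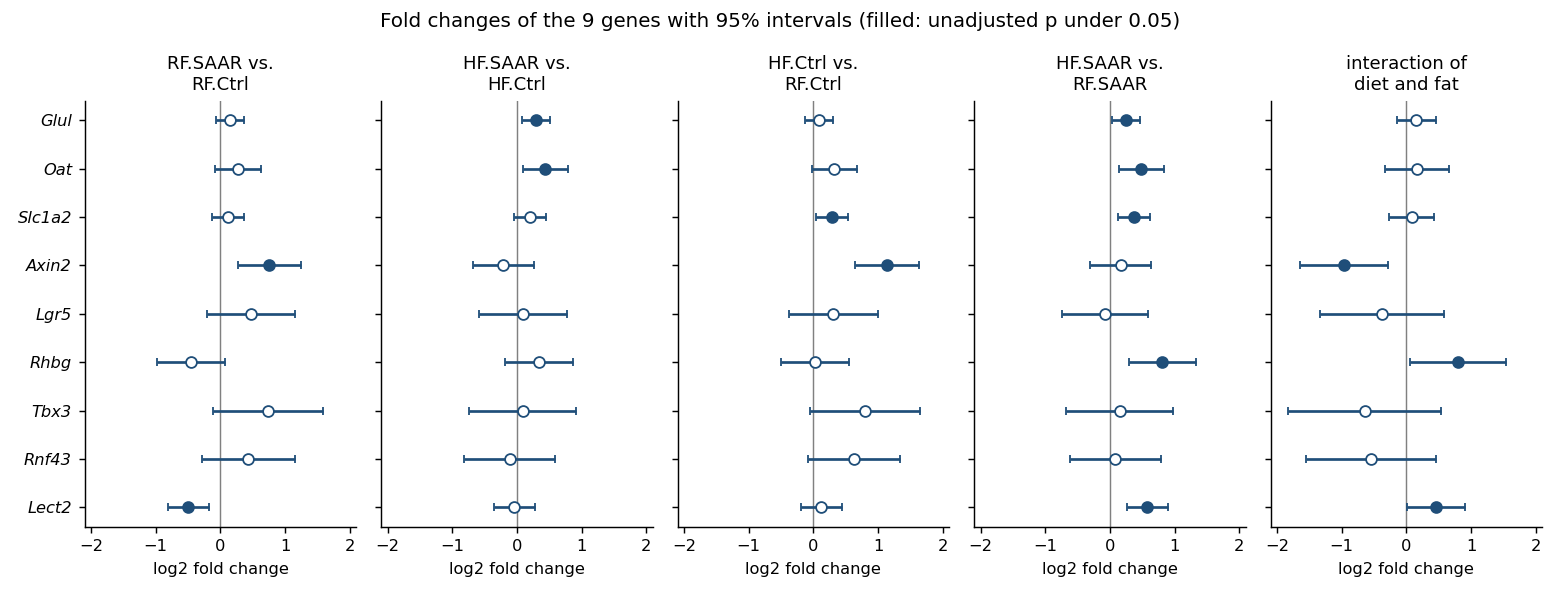
Log2 fold changes (x axis) of the 9 members (y axis) in 5 comparisons, as points with 95% intervals from the fit over 12 mice, filled where the unadjusted p was under 0.05. No member passed the adjusted threshold, and the widest intervals belong to Tbx3, Rnf43 and Lgr5.

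The first group of members handles nitrogen. Glul (ENSMUSG00000026473, GRCm38 chr1:153899944-153909723) encodes glutamine synthetase, which joins ammonium to glutamate in the innermost ring of pericentral hepatocytes. Its level was 731, 646 and 624 CPM in the RF.Ctrl mice, 755, 665 and 794 in RF.SAAR, 730, 722 and 679 in HF.Ctrl and 889, 947 and 789 in HF.SAAR. In CPM the HF.SAAR mice were all above the HF.Ctrl mice, while the regular-fat groups overlapped. In TPM the RF.SAAR mice were also all above the RF.Ctrl mice (lowest 284, highest 265). Group means were 667 ± 56.5, 738 ± 65.9, 711 ± 27.5 and 875 ± 80.2 CPM (SD, n = 3). In HF.SAAR vs. HF.Ctrl the log2 fold change was 0.30 (95% interval 0.083 to 0.52, adjusted p = 0.190), and in RF.SAAR vs. RF.Ctrl it was 0.15 (-0.071 to 0.36, adjusted p = 0.606). Pooled over fat the SAAR difference was 0.22 (0.070 to 0.38, adjusted p = 0.0832). This value lay near the threshold, since DESeq2 gave an adjusted p of 0.0260, leaving out RF.SAAR mouse 2 gave 0.0486, and library-size scaling gave 0.00257 with a log2 fold change of 0.39. Over all alternatives the adjusted p ran from 0.00257 to 0.188. Library-size scaling also called Glul in HF.SAAR vs. HF.Ctrl, with a log2 fold change of 0.47 and an adjusted p of 0.0153 in a range of 0.0153 to 0.448.

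Oat (ENSMUSG00000030934, chr7:132557478-132576398) encodes ornithine aminotransferase, a mitochondrial enzyme that turns ornithine toward glutamate and is found beside glutamine synthetase. It stood at 723, 1012 and 589 CPM in RF.Ctrl mice, 829, 1045 and 933 in RF.SAAR, 1002, 961 and 946 in HF.Ctrl, and 1464, 1299 and 1173 in HF.SAAR. The 3 HF.SAAR mice were above all of the other 9 mice, as was the case for 1.14% of all genes. In CPM the RF.Ctrl mice spread the most, with mouse 2 of that group inside the range of RF.SAAR. Means were 775 ± 216, 936 ± 108, 970 ± 29.1 and 1312 ± 146 CPM (SD, n = 3) in the same order. The log2 fold change was 0.44 in HF.SAAR vs. HF.Ctrl (0.086 to 0.79, adjusted p = 0.25), 0.27 for RF.SAAR vs. RF.Ctrl (-0.078 to 0.62, adjusted p = 0.532) and 0.49 in HF.SAAR vs. RF.SAAR (0.14 to 0.84, adjusted p = 0.701). The regular-fat value moved to 0.51 without RF.Ctrl mouse 2 (adjusted p = 0.119) and to 0.11 without RF.Ctrl mouse 3, in a range of adjusted p from 0.119 to 0.879. Pooled over fat, SAAR gave 0.35 (0.11 to 0.60, adjusted p = 0.0890). Without RF.Ctrl mouse 2 this became 0.47 with an adjusted p of 0.00984, DESeq2 gave 0.0340, and the range over alternatives was 0.00972 to 0.198. In CPM, Glul and Oat were the members whose HF.SAAR and HF.Ctrl mice did not overlap. These were 2 of 9, against 8.88% of all genes separated in that direction. In TPM the HF.SAAR mice were also all above the HF.Ctrl mice for Slc1a2 (lowest 51.1, highest 47.3), Rhbg (5.92 and 5.36) and Lect2 (209 and 202). The share of all genes separated in TPM was not computed.

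Slc1a2 (ENSMUSG00000005089, chr2:102658659-102790784) encodes the glutamate transporter GLT-1, which supplies the pericentral cells with the substrate of glutamine synthetase. It was read at 117, 110 and 102 CPM in RF.Ctrl mice, 110, 120 and 126 in RF.SAAR, 143, 127 and 134 in HF.Ctrl and 155, 176 and 131 in HF.SAAR. In CPM every one of the 6 high-fat mice was above every one of the 6 regular-fat mice, which held for 1 of 9 members and 0.0886% of all genes. In TPM these mice overlapped, and HF.Ctrl mouse 2 was the lowest of all 12 at 30.3. The SAAR mice, which overlapped the Ctrl mice of the same fat level in CPM, were all above them in TPM. The lowest RF.SAAR mouse had 45.6 and the highest RF.Ctrl mouse 43.1, and on high fat these values were 51.1 and 47.3. The pooled fat difference was 0.34 on the log2 scale (0.16 to 0.51, adjusted p = 0.228), rank 68 of all genes by p. DESeq2 called it, with an adjusted p of 0.0167 in a range over alternatives of 0.0167 to 0.655. By diet, the fat difference was 0.29 in Ctrl mice (0.047 to 0.54, adjusted p = 0.9996) and 0.38 in SAAR mice (0.13 to 0.63, adjusted p = 0.604). The SAAR difference was 0.11 on regular fat (-0.14 to 0.36) and 0.20 on high fat (-0.051 to 0.44), and pooled it was 0.15 (adjusted p = 0.319). Library-size scaling alone gave 0.32 with an adjusted p of 0.0160 for the pooled value, in a range of 0.0160 to 0.574.

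Rhbg (ENSMUSG00000104445, chr3:88242874-88254709), which encodes an ammonium transporter of the Rh family, was low. It measured 6.24, 9.05 and 8.51 CPM in RF.Ctrl mice, 5.33, 4.35 and 7.70 in RF.SAAR, 10.99, 6.73 and 6.46 in HF.Ctrl and 10.9, 10.7 and 8.95 in HF.SAAR. In CPM the lowest HF.SAAR mouse was above the highest RF.SAAR mouse, and all other pairs of groups in the 4 pairwise comparisons overlapped. In TPM the HF.SAAR mice were also all above the HF.Ctrl mice (lowest 5.92, highest 5.36). In HF.SAAR vs. RF.SAAR the log2 fold change was 0.81 (0.29 to 1.34, adjusted p = 0.598). The sign of the SAAR difference was negative on regular fat, -0.45 (-0.98 to 0.077, adjusted p = 0.477), and positive on high fat, 0.34 (-0.18 to 0.86, adjusted p = 0.643). The test of the difference between them gave 0.80 (0.053 to 1.54, adjusted p = 0.999). The fat difference in Ctrl mice, 0.018 (-0.51 to 0.54), turned to -0.13 without RF.Ctrl mouse 1, to -0.27 without HF.Ctrl mouse 1 and to -0.047 with library-size scaling. With SAAR pooled over fat, Rhbg differed by -0.055 (-0.43 to 0.32), which turned positive without RF.SAAR mouse 2, without HF.Ctrl mouse 1 (0.087), and with library-size scaling (0.11).

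The second group responds to Wnt and feeds back on it. Axin2 (ENSMUSG00000000142, chr11:108920349-108950783) encodes a scaffold of the complex that destroys β-catenin and is a widely used readout of the pathway. It lay at 2.75, 3.58 and 2.67 CPM in RF.Ctrl mice, 4.85, 4.61 and 5.80 in RF.SAAR, 5.05, 5.73 and 9.02 in HF.Ctrl and 5.15, 6.25 and 5.75 in HF.SAAR. The 3 RF.Ctrl mice were below all of the other 9 mice, as was the case for 0.682% of all genes, and the other 3 groups overlapped. Means were 3.0 ± 0.504, 5.09 ± 0.630, 6.6 ± 2.12 and 5.72 ± 0.553 CPM (SD, n = 3). The log2 fold change was 1.13 in HF.Ctrl vs. RF.Ctrl (0.64 to 1.63), rank 12 of all genes by p, with an adjusted p of 0.268. DESeq2 called this difference (adjusted p = 0.0181, in a range of 0.0181 to 1), and leaving out single mice gave values from 0.84 upward. In RF.SAAR vs. RF.Ctrl it was 0.76 (0.26 to 1.25, adjusted p = 0.133), and this comparison uses the same RF.Ctrl mice. On high fat the SAAR difference was -0.21 (-0.68 to 0.27, adjusted p = 0.787), and it became 0.084 without HF.Ctrl mouse 3. The interaction was -0.97 (-1.65 to -0.28, adjusted p = 0.999).

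Tbx3 (ENSMUSG00000018604, chr5:119670669-119684724), a T-box transcription factor of pericentral and progenitor-like hepatocytes, was read at 8.70, 12.9 and 7.47 CPM in RF.Ctrl mice, 13.4, 16.5 and 18.7 in RF.SAAR, 8.601, 15.1 and 26.9 in HF.Ctrl and 14.5, 24.6 and 14.9 in HF.SAAR. In CPM the RF.SAAR mice were all above the RF.Ctrl mice, which held for Axin2 and Tbx3 alone. These were 2 of 9 members, against 8.51% of all genes separated in that direction. In TPM this also held for Glul (lowest RF.SAAR mouse 284, highest RF.Ctrl mouse 265), Oat (540 and 533) and Slc1a2 (45.6 and 43.1). The log2 fold change of Tbx3 in RF.SAAR vs. RF.Ctrl was 0.74 (-0.11 to 1.58, adjusted p = 0.461). HF.Ctrl mice spanned the widest range of any group, so that HF.Ctrl vs. RF.Ctrl gave 0.80 (-0.052 to 1.65, adjusted p = 0.9996) and HF.SAAR vs. HF.Ctrl gave 0.090 (-0.74 to 0.92). The latter turned to -0.22 without HF.Ctrl mouse 1 and to -0.21 without HF.SAAR mouse 2.

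Rnf43 (ENSMUSG00000034177, chr11:87662722-87735539) encodes a ubiquitin ligase that removes Frizzled receptors from the cell surface. Its values were 6.52, 9.72 and 14.5 CPM in RF.Ctrl mice, 15.6, 10.9 and 14.9 in RF.SAAR, 9.83, 13.8 and 23.8 in HF.Ctrl and 13.6, 15.4 and 14.9 in HF.SAAR. All 4 groups overlapped. On the log2 scale RF.SAAR vs. RF.Ctrl gave 0.43 (-0.28 to 1.145), 0.63 in HF.Ctrl vs. RF.Ctrl (-0.085 to 1.34) and -0.11 in HF.SAAR vs. HF.Ctrl (-0.81 to 0.59), the last with the opposite sign, 0.31, without HF.Ctrl mouse 3. The first moved to 0.19 without RF.Ctrl mouse 1, to 0.76 without RF.Ctrl mouse 3 (adjusted p = 0.443) and to 0.21 with length offsets, in a range of adjusted p from 0.4 to 0.896. HF.Ctrl mouse 3 had the highest value of all 12 mice for Axin2, Tbx3 and Rnf43.

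Lgr5 (ENSMUSG00000020140, chr10:115450311-115587780) encodes an R-spondin receptor that marks cells with high Wnt input and was the rarest member. It measured 3.95, 3.89 and 3.95 CPM in RF.Ctrl mice, 7.51, 2.76 and 6.11 in RF.SAAR, 4.91, 3.34 and 6.34 in HF.Ctrl and 6.17, 5.01 and 4.38 in HF.SAAR. RF.SAAR held both the highest and the lowest mouse. The log2 fold changes were 0.47 in RF.SAAR vs. RF.Ctrl (-0.21 to 1.16), 0.094 in HF.SAAR vs. HF.Ctrl (-0.58 to 0.77), 0.31 in HF.Ctrl vs. RF.Ctrl (-0.38 to 0.99) and -0.076 in HF.SAAR vs. RF.SAAR (-0.75 to 0.59). The first moved to 0.18 without RF.SAAR mouse 1, to 0.79 without RF.SAAR mouse 2 (adjusted p = 0.172) and to 0.15 with length offsets, in a range of adjusted p from 0.172 to 0.939. The second turned to -0.12 without HF.Ctrl mouse 2 and to -0.049 without HF.SAAR mouse 1. The last turned to 0.22 without RF.SAAR mouse 1, to 0.0059 without RF.SAAR mouse 3 and to 0.033 without HF.SAAR mouse 3. All 4 intervals included 0.

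Lect2 (ENSMUSG00000021539, chr13:56542464-56548502) encodes a protein secreted by hepatocytes and is a target of β-catenin in liver. It stood at 112, 115 and 94.1 CPM in RF.Ctrl mice, 69.5, 94.95 and 63.0 in RF.SAAR, 124, 111 and 114 in HF.Ctrl and 116, 124 and 99.7 in HF.SAAR. Mouse 2 of RF.SAAR lay just above the lowest RF.Ctrl mouse. Means were 107 ± 11.2, 75.8 ± 16.9, 116 ± 6.53 and 113 ± 12.5 CPM (SD, n = 3). RF.SAAR vs. RF.Ctrl gave -0.50 on the log2 scale (-0.81 to -0.18, adjusted p = 0.122). DESeq2 called it (adjusted p = 0.04002), and without RF.SAAR mouse 2 it was -0.69 with an adjusted p of 0.0275, in a range over alternatives of 0.0275 to 0.407. On high fat it was -0.038 (-0.35 to 0.28, adjusted p = 0.960). This turned positive without HF.Ctrl mouse 1 or HF.SAAR mouse 3 (0.045) and with library-size scaling (0.12). In TPM the HF.SAAR mice were all above the HF.Ctrl mice (lowest 209, highest 202). The interaction was 0.46 (0.014 to 0.90, adjusted p = 0.999). Pooled over fat it was -0.27 (-0.49 to -0.045, adjusted p = 0.156), and without RF.SAAR mouse 2 -0.37 with an adjusted p of 0.0253, in a range of 0.0253 to 0.487.

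Between the fat levels, Lect2 had the smallest p of the 9 members in SAAR mice. In HF.SAAR vs. RF.SAAR its log2 fold change was 0.58 (0.26 to 0.89, adjusted p = 0.431), rank 52 of all genes. DESeq2 gave an adjusted p of 0.0406, in a range of 0.0406 to 1. In CPM, Lect2, Oat, Slc1a2 and Rhbg were the members whose HF.SAAR mice were all above the RF.SAAR mice, 4 of 9 against 5.47% of all genes. Slc1a2 and Axin2 were those whose HF.Ctrl mice were all above the RF.Ctrl mice in CPM, 2 of 9 against 4.09%. In TPM the mice overlapped for Slc1a2 in both comparisons. The 6 SAAR mice separated from the 6 Ctrl mice in CPM in no member, which 4.3% of all genes did in either direction. This depended on the scale. TPM values, which are not scaled by TMM factors, separated them for Glul (lowest SAAR mouse 284, highest Ctrl mouse 278) and for Oat (540 and 533). The share of all genes so separated in TPM was not computed. The 7 hepatocyte markers summed to 93130 to 108987 CPM among RF.Ctrl mice and 83165 to 90946 among RF.SAAR mice, without overlap, so hepatocyte markers moved in the same direction as Lect2 on regular fat, and their part in its difference was not tested.

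**Figure D2:**
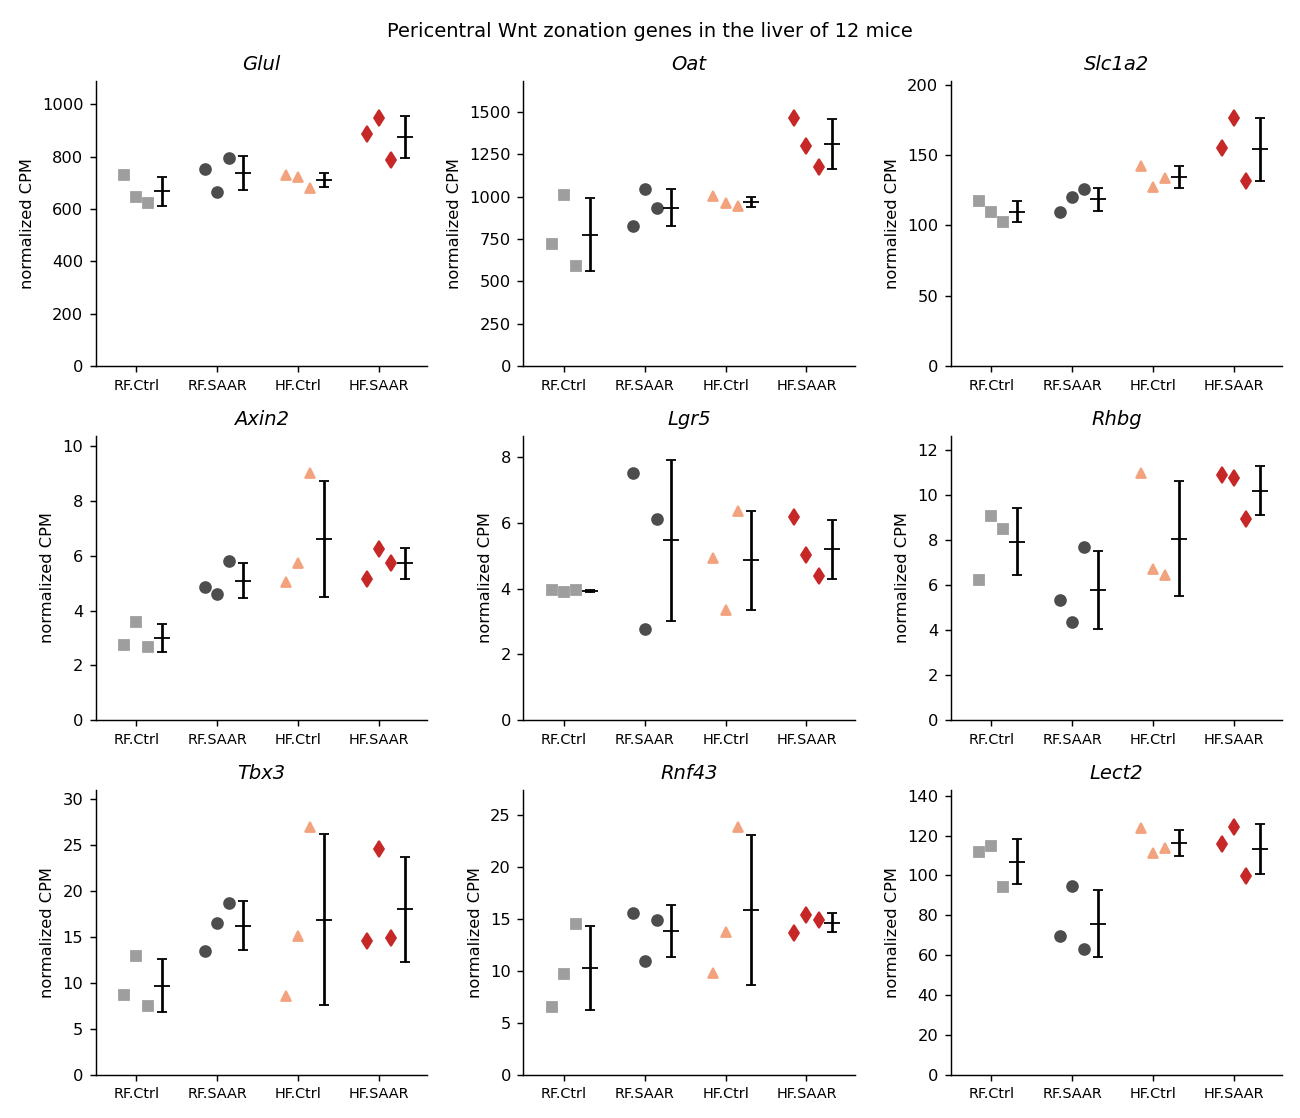
Normalized CPM (y axis, from 0) of each member in each mouse by diet group (x axis), 1 panel per gene, with symbols for single mice and a black bar for the mean ± SD of 3 mice. Oat in HF.SAAR lies above all other mice, Axin2 in RF.Ctrl lies below all other mice, and HF.Ctrl mouse 3 has the highest Axin2, Tbx3 and Rnf43.

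Whether the members varied together between mice of the same diet was examined on log2 CPM after subtraction of each group's mean, over 12 mice. Of the 36 pairs 23 had a positive Pearson's r, and 0 passed an adjusted p of 0.05 by exact permutation of mice within groups, with 2 pairs under an unadjusted p of 0.05. Axin2 and Tbx3 had the highest value, r = 0.908 (two-sided exact permutation p = 0.00386, adjusted p = 0.139) and Spearman's rho = 0.790 (permutation p = 0.0154, adjusted p = 0.556). Without the 2 mice farthest from the median of Axin2 r was 0.814. The smallest p that rearrangement within groups allows is 0.000772. Glul and Slc1a2, which act on the same glutamate, had r = 0.682 (exact permutation p = 0.0648, adjusted p = 0.618; rho = 0.671, p = 0.0679). Rnf43 and Lect2 had r = -0.526 (exact permutation p = 0.0486, adjusted p = 0.618). Glul had r = 0.031 with Oat (exact permutation p = 0.944). Scaling by library size alone changed several of these values. It gave 29 positive pairs and 4 under an unadjusted p of 0.05, with 0 past the adjusted threshold. Glul and Lgr5 went from r = 0.416 to 0.789 (exact permutation p = 0.0347, adjusted p = 0.312), Glul and Axin2 from -0.053 to 0.293, and Rnf43 and Lect2 to -0.358 (exact permutation p = 0.282), while Axin2 and Tbx3 stood at 0.885 (exact permutation p = 0.00849, adjusted p = 0.306). All pairs share libraries and scaling.

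**Figure D3:**
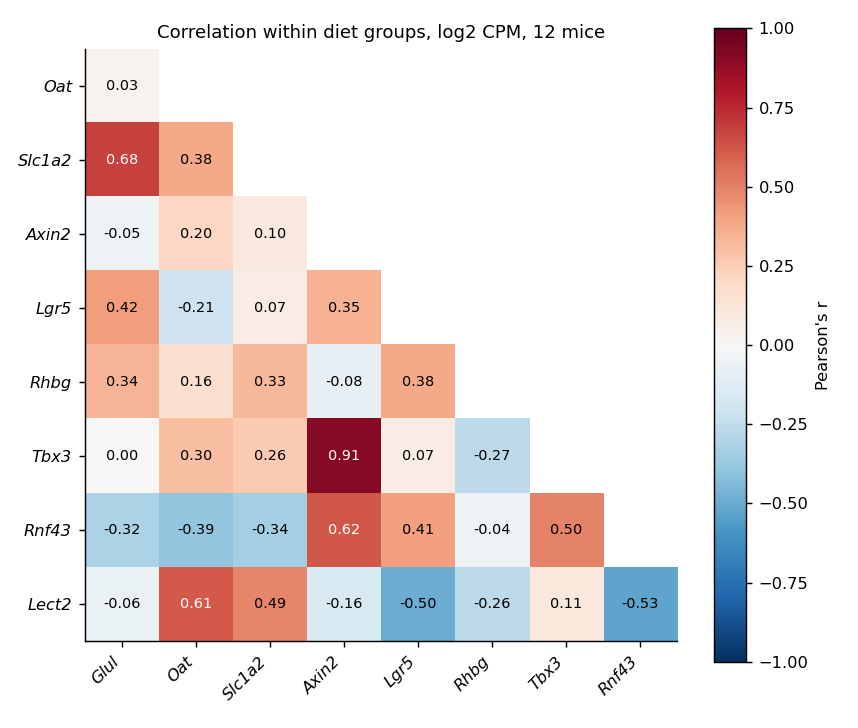
Pearson's r between pairs of members over 12 mice after removal of each diet group's mean log2 CPM, with gene names on both axes and r as color and number. Axin2 with Tbx3 is the darkest cell at 0.91, and the relations of Glul range from -0.32 to 0.68.

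Likeness of pattern to other genes was described by Pearson's r of log2 CPM over the 12 mice with group differences kept, and the closest 2 of all tested genes are named without a test. Glul was most like the glucuronosyltransferase genes Ugt2b36 (r = 0.951) and Ugt2b5 (0.880), Oat like Cyp2a22 (0.880) and Slc26a4 (0.879), and Slc1a2 like Pgrmc1 (0.904) and Atp5s (0.872). Axin2 was most like Calcrl (0.952), a receptor gene of endothelial cells, and Zkscan17 (0.844). Tbx3 was most like Nfkbiz (0.906) and Slc30a1 (0.890), Rnf43 like Zkscan1 (0.897) and Fkbp15 (0.886), and Lgr5 like Mcm4 (0.877) and Fbxl5 (0.862). Rhbg was most like Dkk3 (0.866) and Zfp113 (0.795), and Lect2 like Cyp2d26 (0.949) and Oxld1 (0.942). No other member was among the closest 2 of any member.

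The rest of the Wnt pathway was taken from lists of ligands, receptors, intracellular components and feedback genes. Of 25 ligand, secretion and R-spondin genes 12 were abundant enough to test, and 0 of them were called in any comparison with SAAR. Among those that the central vein is known for, Wnt2 had means of 3.19 (RF.Ctrl), 3.999 (RF.SAAR), 3.81 (HF.Ctrl) and 4.30 CPM (HF.SAAR), with a pooled SAAR log2 fold change of 0.25 (adjusted p = 0.375). Wnt9b was near 1 CPM in all groups (0.902, 1.02, 0.999 and 0.751; -0.12, adjusted p = 0.903), and Rspo3 was at 7.04, 6.16, 7.12 and 7.01 CPM (-0.11, adjusted p = 0.702). The ligand gene with the smallest pooled p was Wnt5b (-0.55, adjusted p = 0.143), and Wnt9a followed (-0.65, adjusted p = 0.320). By fat level Wnt5b had -1.09 (regular, adjusted p = 0.0999) and -0.019 (high, adjusted p = 0.991), and its interaction was not called (adjusted p = 0.999).

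Of 18 receptor and ligase genes 14 were tested and 1 was called with SAAR pooled over fat, against 3.22% of all genes called higher. This was Lrp5, the Wnt co-receptor, whose means were 46.2, 65.5, 42.9 and 57.4 CPM, and whose pooled value was 0.46 ± 0.10 (log2, SE, adjusted p = 0.0175). Znrf3, the partner ligase of Rnf43, had 0.38 (adjusted p = 0.126), and Lgr4, the other R-spondin receptor of hepatocytes, had -0.19 (adjusted p = 0.298). Of 26 genes of the destruction complex and the nuclear factors 25 were tested and 1 was called, Dvl1, a relay of Frizzled signals, with 44.8, 56.9, 43.7 and 56.0 CPM and 0.35 ± 0.061 (SE, adjusted p = 0.00398). Ctnnb1, which encodes β-catenin itself, was at 207, 215, 201 and 203 CPM (0.037, adjusted p = 0.807). Among 21 other feedback and target genes 15 were tested and 0 called. Sp5, Nkd1 and Notum are further targets that restrain the pathway. Their pooled SAAR values were 0.18, -0.18 and 0.019, with adjusted p of 0.888, 0.529 and 0.937. The smallest p belonged to Tnfrsf19 (-0.57, adjusted p = 0.212) and Prox1 (0.24, adjusted p = 0.384). By fat level Tnfrsf19 had -0.97 (regular, adjusted p = 0.225) and -0.16 (high, adjusted p = 0.913).

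Other pericentral genes moved in both directions. Of 25 tested, 5 were called higher and 4 lower with SAAR pooled over fat, against 3.22% and 3.7% of all genes, with a list median of -0.045. The glutathione transferases Gstm1 (0.96 ± 0.067 on the log2 scale, SE, adjusted p = 4.38e-06), Gstm2 (1.09 ± 0.14) and Gstm3 (1.18 ± 0.15) rose, and Rgn, which encodes regucalcin (-0.56 ± 0.063, adjusted p = 0.00017), fell. These transferases are close paralogs whose reads the counting may have divided. On regular fat 1 was called higher (Gstm1) and 2 lower (Rgn, and Cyp2c50 of the P450 family), against 0.6% and 0.886% of all genes. On high fat 4 were called higher and 2 lower, against 1.01% and 0.961%. On regular fat Gstm2 had 0.43 (adjusted p = 0.351) and Gstm3 0.32 (adjusted p = 0.562), while on high fat they had 1.75 and 2.03, both called. Their interactions were not called (adjusted p = 0.560 and 0.290). Cyp2e1, the most abundant pericentral gene named here at group means from 6336 to 9154 CPM, had a pooled SAAR value of -0.15 (adjusted p = 0.206), and Cyp1a2 -0.12 (adjusted p = 0.370). The 22 periportal genes showed 1 called higher, Hsd17b13 of lipid droplets (0.63), and 4 lower, with Cyp2f2 (-0.51), Pigr (-0.46) and Igf1 (-0.37) among them, at a median of 0.0043. Of 4 midlobular genes 0 were called, with Cyp8b1 at -0.39 (adjusted p = 0.197) and Igfbp2 at 0.53 (adjusted p = 0.222). In the fat comparisons and the interaction 0 genes of these 7 lists were called. With high fat over both diets 18 of the 25 other pericentral genes had a positive value, with a median of 0.16, and 11 of 25 had an unadjusted p under 0.05, against 5.84% of all genes. Among them Cyp2e1 had 0.38 (adjusted p = 0.0544) and Cyp1a2 0.20 (adjusted p = 0.632).

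**Figure D4:**
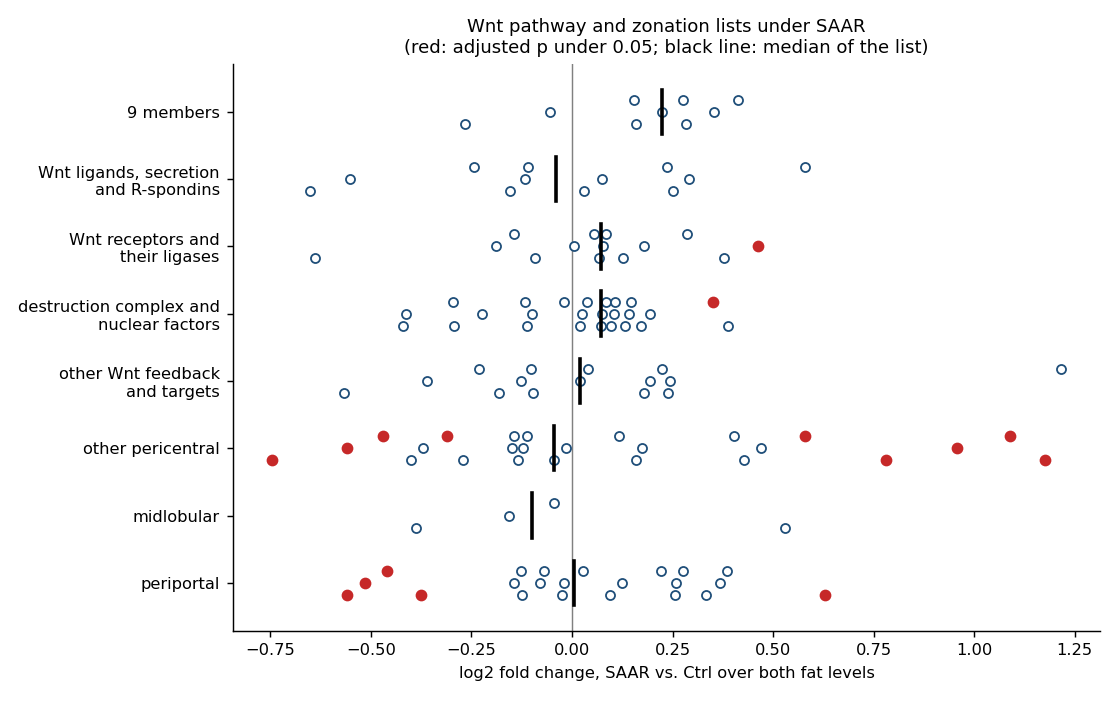
Log2 fold change with SAAR pooled over both fat levels (x axis) for the 9 members and for 7 lists of Wnt pathway and zonation genes (y axis), 1 point per tested gene, red where the adjusted p was under 0.05, with a black line at the median of each list. The called genes lie in the receptor (1), destruction complex (1), other pericentral (9) and periportal (5) lists, and none is a member.

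Markers of other cells were read beside the members for the same comparison. With SAAR pooled over fat, where 6.92% of all genes were called, 1 of 14 liver endothelial markers was called, Lyve1 (0.55, adjusted p = 0.00746). The summed level of the 14 ranged from 417 to 479 CPM over RF.Ctrl mice, 461 to 467 over RF.SAAR, 413 to 454 over HF.Ctrl and 433 to 466 over HF.SAAR. Of 10 stellate cell markers 1 was called, Lrat (-0.59, adjusted p = 0.0177). By fat level Lrat had -0.86 (regular, adjusted p = 0.0408) and -0.32 (high, adjusted p = 0.548). Of 5 tested cholangiocyte markers 1 was called, Spp1 (-0.46, adjusted p = 0.00767), and of 7 hepatocyte markers 2, Serpina1c (-0.52) and Fgb (-0.26). Of 7 Kupffer cell, 32 acinar, 8 muscle and 6 adipocyte markers 0 were called, the genes with the smallest p being Clec4f and Vsig4, 2210010C04Rik and Dmbt1, Tnnt3 and Pvalb, and Cidec and Fabp4. The part of such cells in the values of the members was not tested.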

How the data were processed

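Liver poly(A) RNA of 12 mice was sequenced as paired reads. Per the paper's methods and the labels, the authors trimmed reads with cutadapt, checked them with FastQC and quantified Ensembl mouse transcripts with kallisto. The deposited files give estimated counts (expected counts, which need not be whole), TPM made by the authors from these counts and effective length, and deposited effective lengths in bases (other unit). None is normalized between mice. Of 118489 transcripts 116816 matched the GENCODE annotation of GRCm38, and the 1673 others, with 1.08% of the counts, were left out.

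Mice are numbered within groups in accession order, as names only. Counts were summed by gene and rounded. Errors are the spread between the mice of a group, and p-values cover only that spread. edgeR 4.0.16 with limma 3.58.1 in R 4.3.3 was used with TMM factors, filterByExpr by group, and a robust quasi-likelihood fit to the 12 mice. Benjamini-Hochberg adjustment ran over 14670 genes, with calls at an adjusted p under 0.05. The common biological coefficient of variation was 0.215. CPM are relative to TMM-scaled totals. The correlations between members used log2 CPM with a prior count of 2, and the SD of log2 values within groups used log2 CPM without one. Intervals are at 95%. DESeq2 1.42.0, other scalings, filters, length offsets, acinar adjustments and the omission of each mouse were alternatives. The scripts were tested on simulated data.

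The members, the 15 other lists and the tests were chosen with earlier results of these data known. Named were all members, up to 4 called genes per list and SAAR comparison (where none was called, the 2 with the smallest p), and the 2 genes most like each member. Wnt2, Wnt9b, Rspo3, Znrf3, Lgr4, Ctnnb1, Sp5, Nkd1, Notum, Cyp2e1 and Cyp1a2 are named for their roles, outside this rule. Of 8 hepatocyte markers 1 was not found under its symbol.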

Additional observations from a re-analysis of the deposited data

How the results depend on the processing

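No paired analysis was possible because the labels carry no replicate numbers, and the mouse numbers used here only name the mice. With TMM factors and all 12 mice, edgeR called 0 members. Library size alone called 0, 1 and 3 members in the SAAR comparisons (regular fat, high fat, pooled) and 425, 719 and 2449 genes (359, 639 and 2175 higher, 66, 80 and 274 lower, against 88, 148 and 472 higher and 130, 141 and 543 lower with TMM), and 1 and 4 genes between fat levels in Ctrl and in SAAR mice. DESeq2 called 1, 0, 2, 1, 1, 1 and 0 members in the 7 comparisons, with 591, 595, 1363, 31, 85, 124 and 16 genes. Without a low-count filter 3, 14 and 18 genes were called in HF.Ctrl vs. RF.Ctrl, HF.SAAR vs. RF.SAAR and both diets pooled, and with the acinar covariate 1, 2 and 0. The compared groups alone gave 190 genes in HF.SAAR vs. HF.Ctrl and 2 in HF.Ctrl vs. RF.Ctrl, and length offsets 0 in the interaction.

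Signs turned for Rnf43 in HF.SAAR vs. HF.Ctrl (0.0313 with library size, 0.0233 with the acinar covariate), Lect2 there (0.12, library size), Rhbg with SAAR pooled (0.11) and in HF.Ctrl vs. RF.Ctrl (-0.0473, library size), Rnf43 with SAAR pooled (-0.0738) and in HF.SAAR vs. RF.SAAR (-0.15, length offsets), and Lgr5 in HF.SAAR vs. RF.SAAR (0.21, length offsets; 0.30, acinar covariate) and in the interaction (0.0743, length offsets). The causes were not tested. Omitting single mice left 0 to 1, 0 to 0 and 0 to 2 members called in the SAAR comparisons, with 87 to 244, 110 to 310 and 655 to 968 genes, and 0 to 0 members in the others, with 0 to 2, 1 to 7, 0 to 11 and 0 to 2 genes. The members called without 1 mouse were Lect2 and Glul (RF.SAAR mouse 2) and Oat (RF.Ctrl mouse 2).

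Omitting 1 mouse at a time also turned signs. The ranges in HF.SAAR vs. HF.Ctrl were -0.366 to 0.0836 for Axin2, -0.122 to 0.334 for Lgr5, -0.223 to 0.596 for Tbx3, -0.36 to 0.307 for Rnf43 and -0.119 to 0.0453 for Lect2. For Rhbg they were -0.183 to 0.0866 with SAAR pooled and -0.266 to 0.152 in HF.Ctrl vs. RF.Ctrl. In HF.SAAR vs. RF.SAAR they were -0.394 to 0.222 for Lgr5, -0.146 to 0.283 for Tbx3 and -0.0572 to 0.179 for Rnf43, and with both diets pooled -0.0439 to 0.264 for Lgr5. In the interaction they were -0.0766 to 0.327 for Oat and -0.0362 to 0.187 for Slc1a2.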
